A study of Homo sapiens with 9 samples.

Results

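The genes described here are 10 enzymes and related proteins of detoxification and redox control: AKR1C1, AKR1C2, AKR1C3, AKR1B1, AKR1B10, NQO1, TXNRD1, SRXN1, OSGIN1 and ME1. They are genes known as targets of the transcription factor NRF2, and they were chosen by name with measured values of these same libraries already known, so their differences between groups are given as a description and without p-values. All 10 were among the 35817 genes of the count table, and all 10 were among the 21130 genes kept after genes with low counts were removed. RNA came from the established human colorectal carcinoma line HCT116, transfected by Lipofectamine RNAiMax with LINC00857-siRNA1, with LINC00857-siRNA2 or with a negative control siRNA (NC). LINC00857 is a long non-coding RNA, and each group had 3 libraries, 9 in all. No source says that replicate libraries were grown as separate cultures, so the p-values reflect library-to-library spread that may be technical only. The other gene lists below were also chosen with earlier results of these data known. Genes named from them are mostly those with the smallest adjusted p, so their p-values describe selected genes.

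NRF2, encoded by NFE2L2, is held in the cytoplasm by KEAP1, an adaptor that hands it to a CUL3 and RBX1 ubiquitin ligase for degradation. Electrophiles and oxidants modify KEAP1, and NRF2 then enters the nucleus, pairs with a small MAF protein and binds antioxidant response elements in front of its target genes. The targets include aldo-keto reductases, which use NADPH to reduce aldehydes, ketones and steroids, and the enzymes that keep thioredoxin, peroxiredoxins and NADPH in their reduced forms.

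LINC00857, the targeted RNA, had 201, 229 and 207 normalized counts in the siRNA1 libraries, 179, 178 and 243 in the siRNA2 libraries, and 518, 423 and 505 in the NC libraries. Normalized counts here are deposited counts divided by library size after TMM scaling (trimmed mean of M values). The knockdown and NC libraries did not overlap, and LINC00857 fell by 1.18 on the log2 scale with siRNA1 (SE 0.17, adjusted p = 0.000292, edgeR) and by 1.27 with siRNA2 (SE 0.17, adjusted p = 0.000109, edgeR). Total counts per library ran from 51411860 to 57815092. Replicate 1 of siRNA1 stood apart from the other libraries of its group: its chi-square per gene against replicates 2 and 3 was 20.7 and 23.0, whereas other pairs within a group gave 11.2 to 13.6. It also had the highest total and the lowest share of mitochondrial counts, 9.02%, so for several values that rest on it the value without it is given too. Of 8 markers of colorectal epithelium, 6 were kept and VIL1 and LGALS4 were at or near 0, and the marker sum was 3567 to 4066 CPM with siRNA1, 3894 to 4035 CPM with siRNA2 and 3584 to 3776 CPM with NC. The members of that sum did not move alike. EPCAM, an epithelial adhesion protein, rose by 0.47 with siRNA1 (adjusted p = 3.84e-06, edgeR) and fell by 0.37 with siRNA2 (adjusted p = 2.09e-05, edgeR), and CDH1, E-cadherin, rose by 0.25 with siRNA1 (adjusted p = 0.0196, edgeR) and fell by 1.17 with siRNA2 (adjusted p = 1.06e-07, edgeR). The CDH1 call with siRNA1 was lost without replicate 3 of siRNA1 or replicate 1 or 2 of NC, at 0.21 to 0.25. KRT19, a keratin, rose with siRNA2 by 0.59 (adjusted p = 6.03e-07, edgeR), against 0.04 with siRNA1 (adjusted p = 0.657, edgeR). Without replicate 1 of siRNA1 the KRT19 value with siRNA1 was -0.03. Fibroblast markers, nearly all of it COL1A1, summed to 57.5 to 63.9 CPM with siRNA1, 26.7 to 29.6 CPM with siRNA2 and 33.9 to 41.8 CPM with NC, while immune, endothelial and hepatocyte markers each summed to at most 1.75 CPM. All libraries came from the HCT116 line, so the marker sums are levels of genes and not a measure of other cell types. The part of these marker levels in the results was not tested. In bulk RNA, fewer cells expressing a gene and less RNA per cell cannot be told apart.

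The promoters were searched for the core of the antioxidant response element, written TGACNNNGC, because this is the site through which NRF2 acts on its targets, and for the AP-1 motif TGANTCA, which can overlap it. RefSeq promoter windows (GRCh38.p14, 250 bases before to 50 bases after a gene start) were found for 9 of the 10 genes, and AKR1B10 was not matched. With both strands read, TXNRD1 and ME1 held the element core, beside 13.3% of all 35116 promoter windows, and OSGIN1 and ME1 held the AP-1 motif, beside 7.71% of all windows. AKR1C3, AKR1B1 and TXNRD1 had more than 1 window each, so a share of windows is not a share of genes. TXNRD1 had 2 element cores in one window and 1 in another, and ME1 had 2. Only element cores on the gene strand are printed, and those on the opposite strand are not shown. In the 3 stretches below the motif is in capitals, the element core for TXNRD1 and ME1 and the AP-1 motif for OSGIN1, each read 5′ to 3′ along its gene:
TXNRD1: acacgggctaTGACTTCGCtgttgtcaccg
ME1: tctcctgccaTGACTCAGCgcttctcgcag
OSGIN1: cgggcccctgcTGACTCAcgcttatgaaag
The TXNRD1 stretch is chr12:104215670-104215699 on the plus strand, with the motif starting 99 bases before the gene start. The ME1 stretch is chr6:83431169-83431198 on the minus strand, with the motif starting 137 bases before the gene start, and there the element core and the AP-1 motif overlap. The OSGIN1 stretch is chr16:83953132-83953161 on the plus strand, with the motif starting 97 bases before the RefSeq start used for the window, which lies inside the longer GENCODE v29 gene model. These matches are letters in a window and describe no binding, and a window without a match says nothing about NRF2 at that gene.

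Levels differed widely among the 10 genes. In RPKM, which divides counts by annotated exon length and library size, the NC libraries averaged 101.4 for TXNRD1, 54.5 for NQO1, 44.4 for SRXN1, 20.4 for ME1, 10.6 for AKR1B1 and 5.36 for OSGIN1. On the same scale AKR1B10 averaged 0.416, AKR1C3 0.249, AKR1C1 0.136 and AKR1C2 0.0755 in NC. The exon lengths are from GENCODE v29, which may not be the annotation the reads were counted on. They join the exons of all transcripts of a gene, 8765 bases for AKR1C1 and 1744 for AKR1B10. In normalized counts the order of these genes in NC was reversed, with means of 65.6 for AKR1C1 and 40.0 for AKR1B10. By mean normalized count, not divided by length, TXNRD1 ranked 133rd of the 21130 genes, and AKR1C2, the lowest of the 10 over all 9 libraries, ranked 14394th. With siRNA2 alone AKR1C2 had a higher mean count than AKR1B10, AKR1C3 and AKR1C1. The 3 AKR1C genes and AKR1B10 were thus measured on few counts in a deep library, and their values carry a far larger error than those of the abundant genes.

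**Figure D1:**
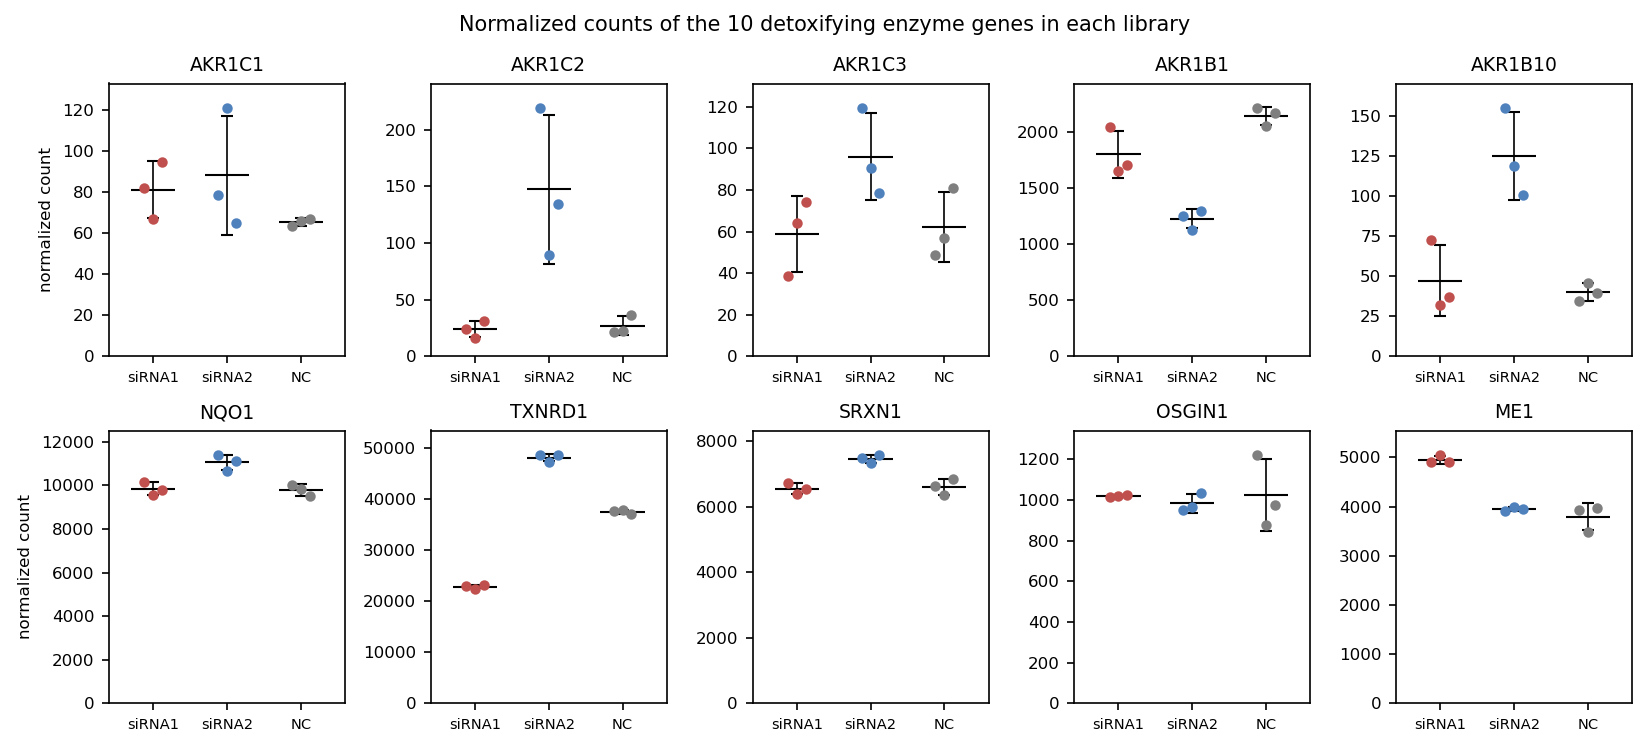
Normalized counts (vertical axes, each from 0) of the 10 genes in the siRNA1, siRNA2 and NC libraries. Points are libraries, horizontal lines are group means and bars are ± 1 SD (n = 3). TXNRD1 lies between 22513 and 23112 with siRNA1, between 47317 and 48615 with siRNA2 and between 37163 and 37818 with NC, and AKR1C2 and AKR1B10 lie above every NC library with siRNA2.

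AKR1C1, AKR1C2 and AKR1C3 are hydroxysteroid dehydrogenases that reduce steroid hormones, prostaglandins and reactive carbonyls, and they lie side by side on chromosome 10. In GRCh38 AKR1C1 spans 4963253 to 4983283 on the plus strand, AKR1C2 spans 4987400 to 5018031 on the minus strand and AKR1C3 spans 5035354 to 5107686 on the plus strand. AKR1C2, which inactivates dihydrotestosterone, had 24.5, 16.6 and 31 normalized counts with siRNA1, 219, 89.4 and 134 with siRNA2, and 21.8, 22.4 and 36.5 with NC. Each siRNA2 library was above each NC library and each siRNA1 library, and the siRNA1 and NC libraries overlapped. The log2 fold change of AKR1C2 was 2.45 (SE 0.41) for siRNA2 against NC and -0.16 (SE 0.41) for siRNA1 against NC, the second with an SE larger than itself.

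AKR1C1, which inactivates progesterone, had 82.0, 67.3 and 95.0 normalized counts with siRNA1, 78.8, 121 and 65.1 with siRNA2, and 63.5, 66.1 and 67.2 with NC. The siRNA1 libraries were all above the NC libraries, but the lowest siRNA1 library and the highest NC library were nearly level, and the siRNA2 libraries overlapped the NC range and reached above it. AKR1C1 differed from NC by 0.31 (SE 0.30) with siRNA1 and by 0.43 (SE 0.30) with siRNA2 on the log2 scale. AKR1C3, which makes testosterone and prostaglandin F, had 38.6, 64.3 and 74.0 normalized counts with siRNA1, 119, 90.5 and 78.3 with siRNA2, and 48.6, 56.9 and 81 with NC. Its siRNA2 libraries overlapped those of NC and lay above those of siRNA1, with log2 fold changes of -0.08 (SE 0.34) for siRNA1 and 0.63 (SE 0.33) for siRNA2 against NC. Without replicate 1 of siRNA1, its lowest library, the AKR1C3 value for siRNA1 against NC was 0.15.

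Within the summed AKR1C counts, AKR1C2 made up 16.9%, 11.2% and 15.5% in the siRNA1 libraries, 52.5%, 29.7% and 48.4% in the siRNA2 libraries, and 16.3%, 15.4% and 19.8% in the NC libraries. The lowest siRNA2 share, 29.7%, had a 95% Clopper-Pearson interval of 24.4% to 35.5%, and the highest NC share, 19.8%, one of 14.3% to 26.2%, so these 2 intervals overlapped; both cover counting error only. Counts of these genes are uncertain in how they divide among the copies. Of the 50-base windows of the AKR1C2 transcript, 50.8% also occurred in AKR1C1, and of the AKR1C1 windows 28.3% also occurred in AKR1C2. With 100-base windows the shares were 31.1% for AKR1C2 and 17.2% for AKR1C1. The sources do not state how reads that match both genes were assigned, and its part in the AKR1C2 result was not tested. AKR1C3 shared 12.1% of its 50-base windows with any other gene.

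**Figure D2:**
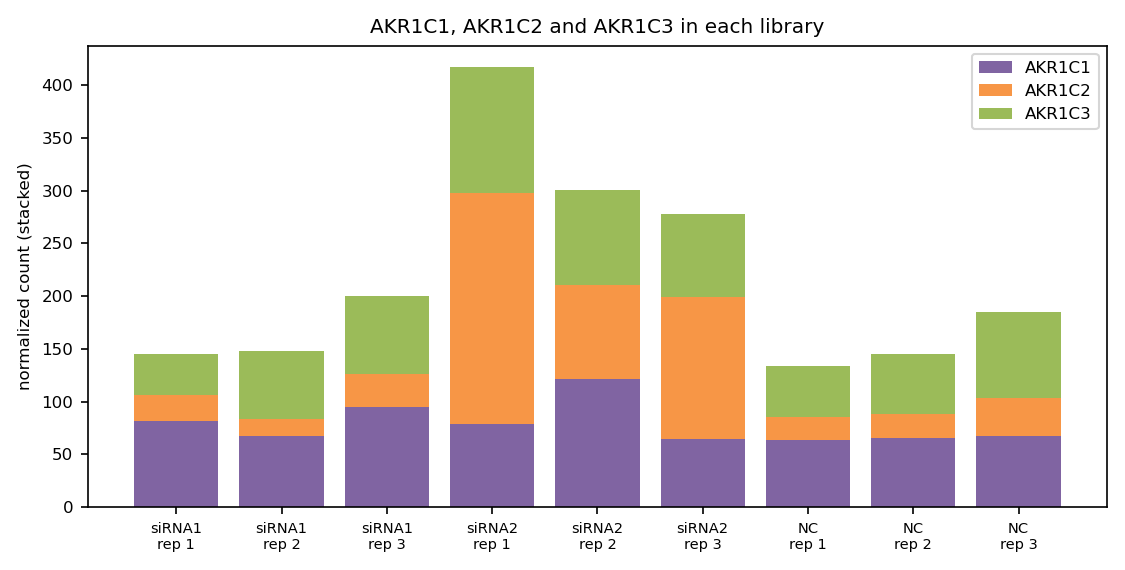
Normalized counts of AKR1C1, AKR1C2 and AKR1C3 (vertical axis, stacked) in each of the 9 libraries. The stack reaches 278 to 417 with siRNA2, against 145 to 200 with siRNA1 and 134 to 185 with NC, and the AKR1C2 segment is the one that is taller in all 3 siRNA2 libraries.

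AKR1B1 and AKR1B10 are neighbours on chromosome 7 and ran in opposite directions with siRNA2. AKR1B1 is aldose reductase, which turns glucose into sorbitol, and AKR1B10 reduces aldehydes and retinal. AKR1B10 had 72.6, 32.2 and 37.0 normalized counts with siRNA1, 155, 119 and 101 with siRNA2, and 34.7, 45.7 and 39.5 with NC. All siRNA2 libraries were above all NC libraries, with a log2 fold change of 1.64 (SE 0.36), while the siRNA1 libraries spread around NC with 0.24 (SE 0.36). That siRNA1 value rested on replicate 1 and was -0.21 without it. Of the 50-base windows of AKR1B10, 17.4% were shared with other genes, 11.6% with AKR1B15, which was not analysed here.

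AKR1B1 had 2042, 1651 and 1711 normalized counts with siRNA1, 1254, 1132 and 1293 with siRNA2, and 2213, 2057 and 2169 with NC. The 3 groups did not overlap, with siRNA2 lowest, siRNA1 between and NC highest, although replicate 1 of siRNA1 came close to the lowest NC library. AKR1B1 differed from NC by -0.81 (SE 0.09) with siRNA2 and by -0.25 (SE 0.09) with siRNA1 on the log2 scale, and by -0.35 with siRNA1 once replicate 1 of siRNA1 was left out. The other aldo-keto reductases were read beside them. Of the 5 that were kept, AKR7A2, an aflatoxin aldehyde reductase, fell with both siRNAs, by 0.46 with siRNA1 (SE 0.07, adjusted p = 0.000383, edgeR) and by 0.23 with siRNA2 (SE 0.07, adjusted p = 0.0242, edgeR). AKR1A1, AKR1E2, AKR7A3 and AKR7L did not pass the test with either siRNA, and their log2 fold changes lay between -0.01 and 0.52 with siRNA1 and between -0.997 and 0.32 with siRNA2. Without replicate 1 of siRNA1 the AKR1A1 value with siRNA1 went from 0.02 to -0.08. The AKR7A2 call with siRNA2 was lost when replicate 1 or 2 of siRNA2 or replicate 1 or 3 of NC was left out, with values of -0.23, -0.18, -0.19 and -0.24.

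TXNRD1, the cytosolic thioredoxin reductase that uses NADPH to reduce thioredoxin, was the most abundant of the 10 genes and the one whose libraries moved to opposite sides of NC. It had 22944, 22513 and 23112 normalized counts with siRNA1, 48601, 47317 and 48615 with siRNA2, and 37616, 37818 and 37163 with NC. The 3 groups were far apart beside a spread of 0.894% to 1.55% (CV) within a group. Against NC the log2 fold change was -0.72 (SE 0.03) with siRNA1 and 0.36 (SE 0.03) with siRNA2, and siRNA1 lay -1.08 (SE 0.03) from siRNA2. TXNRD1 alone made up 47.8% to 48.8% of the counts of the 10 genes with siRNA1, 65.5% to 65.9% with siRNA2 and 60.9% to 62.4% with NC. The sum of the 10 genes, 840 to 870 CPM with siRNA1, 1302 to 1345 CPM with siRNA2 and 1099 to 1120 CPM with NC, is therefore weighted towards this gene. None of its 50-base windows occurred in another gene.

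SRXN1, sulfiredoxin, which repairs over-oxidized peroxiredoxins, had 6718, 6372 and 6552 normalized counts with siRNA1, 7500, 7329 and 7567 with siRNA2, and 6645, 6343 and 6831 with NC. The siRNA2 libraries were above all others by a small margin, and those of siRNA1 and NC overlapped. The SRXN1 log2 fold changes were -0.01 (SE 0.04) for siRNA1 and 0.18 (SE 0.04) for siRNA2 against NC. The annotated gene model AL121758.1 holds 84.7% of the 50-base windows of SRXN1, but it had 13 counts in all 9 libraries together.

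NQO1, a quinone reductase that spares the cell the reactive semiquinone, had 10167, 9580 and 9810 normalized counts with siRNA1, 11383, 10684 and 11103 with siRNA2, and 10010, 9852 and 9501 with NC. Its pattern was that of SRXN1, with siRNA2 above every other library and siRNA1 mixed with NC, and with log2 fold changes of 0.0095 (SE 0.04) for siRNA1 and 0.18 (SE 0.04) for siRNA2. An antisense gene, AC092115.2, overlaps 17.7% of the NQO1 exon bases and had 1 count in all libraries.

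ME1, the cytosolic malic enzyme that makes NADPH from malate, differed from NC with siRNA1 and not in the same way with siRNA2. It had 4906, 5042 and 4899 normalized counts with siRNA1, 3903, 3988 and 3949 with siRNA2, and 3924, 3489 and 3976 with NC. The siRNA1 libraries were above all others, and the siRNA2 libraries overlapped those of NC. ME1 was 0.38 (SE 0.05) above NC with siRNA1 and 0.06 (SE 0.05) above NC with siRNA2 on the log2 scale. OSGIN1, an oxidative stress-induced growth inhibitor, had 1015, 1021 and 1028 normalized counts with siRNA1, 953, 964 and 1037 with siRNA2, and 1221, 876 and 975 with NC. All 3 groups overlapped, and the spread within NC (CV 17.3%) was wider than any distance between the groups, with log2 fold changes of -0.0038 (SE 0.11) for siRNA1 and -0.06 (SE 0.11) for siRNA2.

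**Figure D3:**
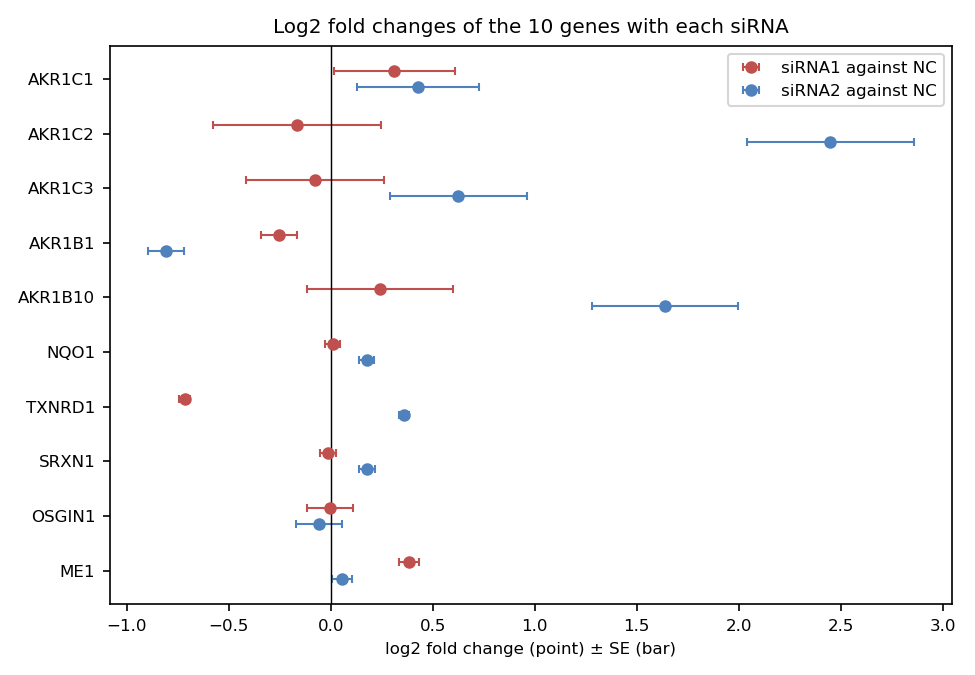
Log2 fold changes against NC (horizontal axis, points) with ± 1 SE (bars) of the 10 genes for siRNA1 and siRNA2, 3 libraries per group. AKR1C2 at 2.45 and AKR1B10 at 1.64 stand farthest to the right with siRNA2, AKR1B1 lies left of 0 with both, and TXNRD1 lies at -0.72 with siRNA1 and 0.36 with siRNA2.

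For siRNA1 against NC, 1 of the 10 genes was past the adjusted p of 0.05 of the edgeR fit upwards (ME1), beside 10.8% of all genes, and 1 downwards (TXNRD1), beside 10.5%, with 21.3% of all genes called in either direction. With siRNA2 against NC 5 were past it upwards (AKR1C2, AKR1B10, NQO1, TXNRD1 and SRXN1), beside 13.8%, and 1 downwards (AKR1B1), beside 13.9%, with 27.7% in either direction. Setting siRNA1 directly against siRNA2, 2 were past it upwards (AKR1B1 and ME1), beside 15.1%, and 5 downwards (AKR1C2, AKR1B10, NQO1, TXNRD1 and SRXN1), beside 14.3%, with 29.4% in either direction. Libraries did not overlap between siRNA1 and NC for 4 of the 10, beside 36.2% of all genes, between siRNA2 and NC for 6, beside 41.6%, and between siRNA1 and siRNA2 for 8, beside 41.8%. Because the genes were chosen on these contrasts, nothing is read from these counts. The comparisons with NC share the same 3 NC libraries. The median log2 fold change of the 10 genes was -0.0083 for siRNA1 against NC, 0.27 for siRNA2 against NC and -0.18 for siRNA1 against siRNA2, and that of all genes was 0.010, 0.0045 and 0.0077 in the same order of comparisons.

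The regulators of the pathway did not move as a block. Of 11 regulators kept, 3 rose and 1 fell with siRNA1, and 2 rose and 3 fell with siRNA2 (edgeR, adjusted over all genes), with median log2 fold changes of 0.06 and -0.02, beside 21.3% and 27.7% of all genes called. Without replicate 3 of siRNA1 only 2 regulators were past the threshold for siRNA1, 1 in each direction. NFE2L2, which encodes NRF2 itself, had 5984, 6428 and 6081 normalized counts with siRNA1, 5575, 5068 and 5627 with siRNA2, and 6814, 6795 and 6648 with NC. Each knockdown library was below each NC library. NFE2L2 fell by 0.32 on the log2 scale with siRNA2 (SE 0.05, adjusted p = 0.000182, edgeR), and its change of -0.13 with siRNA1 did not pass the test (SE 0.05, adjusted p = 0.0601, edgeR). Leaving out replicate 2 of siRNA1 gave -0.17 for NFE2L2 with siRNA1 (adjusted p = 0.0314, edgeR), and leaving out any 1 of the 3 siRNA2 libraries also brought it past the threshold, at -0.14. KEAP1, which holds NRF2 back, had 4834, 4792 and 4564 normalized counts with siRNA1, 4466, 4435 and 4529 with siRNA2, and 4803, 4572 and 4241 with NC. The KEAP1 libraries overlapped in both comparisons with NC, with log2 fold changes of 0.06 for siRNA1 (adjusted p = 0.453, edgeR) and -0.02 for siRNA2 (adjusted p = 0.823, edgeR).

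NFE2L1, a relative of NRF2 that binds the same element and drives proteasome genes, had 13902, 14170 and 13919 normalized counts with siRNA1, 20559, 20881 and 21702 with siRNA2, and 13507, 13476 and 13331 with NC. It rose with siRNA2 by 0.65 (SE 0.03, adjusted p = 9.85e-09, edgeR), and its 0.06 with siRNA1 did not pass (adjusted p = 0.22, edgeR). NFE2L3, a further relative, fell with both, by 0.37 with siRNA1 (adjusted p = 0.000303, edgeR) and by 0.38 with siRNA2 (adjusted p = 0.000158, edgeR). BACH1, a repressor at the same element, rose with siRNA2 by 0.32 (SE 0.06, adjusted p = 0.000877, edgeR), against -0.07 with siRNA1 (adjusted p = 0.495, edgeR). MAFK, a small MAF partner, rose with siRNA1 by 0.20 (adjusted p = 0.00746, edgeR) and fell with siRNA2 by 0.29 (adjusted p = 0.000418, edgeR), and its 2 knockdown groups lay on opposite sides of NC. SQSTM1, an autophagy receptor that can take KEAP1 away from NRF2, rose with siRNA1 by 0.30 (SE 0.03, adjusted p = 8.58e-06, edgeR), against -0.03 with siRNA2 (adjusted p = 0.513, edgeR). CUL3 rose with siRNA1 by 0.14 (adjusted p = 0.0262, edgeR) and stood at 0.0058 with siRNA2 (adjusted p = 0.942, edgeR). The CUL3 call was lost when any library other than replicate 1 of siRNA1 or replicate 2 of NC was left out, at 0.10 to 0.14, and the MAFK call with siRNA1 was lost without replicate 3 of siRNA1 or replicate 2 of NC, at 0.17 each.

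**Figure D4:**
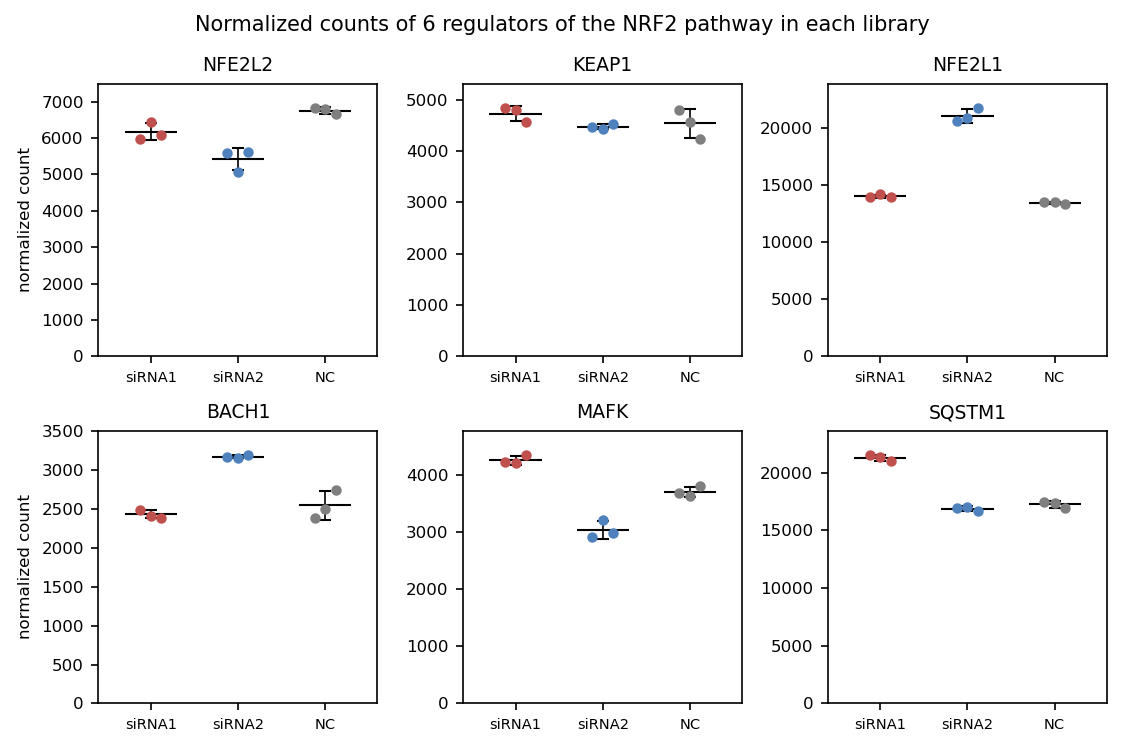
Normalized counts (vertical axes, each from 0) of NFE2L2, KEAP1, NFE2L1, BACH1, MAFK and SQSTM1 in the siRNA1, siRNA2 and NC libraries. Points are libraries, lines are group means and bars are ± 1 SD (n = 3). NFE2L2 is below NC with both siRNAs, KEAP1 overlaps NC, NFE2L1 lies between 20559 and 21702 with siRNA2 against at most 13507 in NC, and SQSTM1 is above NC with siRNA1.

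Other genes known as NRF2 targets were counted from a list of 35, of which 33 were kept. With siRNA1 6 rose, 8 fell and 19 did not pass the edgeR test, and with siRNA2 7 rose, 11 fell and 15 did not pass, with median log2 fold changes of -0.03 and -0.11, beside 21.3% and 27.7% of all genes called. Without replicate 1 of siRNA1, 20 of the list were past the threshold for siRNA1 against NC, 7 upwards and 13 downwards. That fit called 4220 of all genes, against 4491 with every library. Between the siRNAs 12 were higher and 11 lower with siRNA1, beside 29.4% of all genes called. FTH1, the ferritin heavy chain, which stores iron, rose by 0.39 with siRNA1 (SE 0.02, adjusted p = 1.37e-07, edgeR) and by 0.63 with siRNA2 (SE 0.02, adjusted p = 1.27e-09, edgeR). CYP4F11, a fatty acid hydroxylase, had 952, 961 and 1059 normalized counts with siRNA1, 1339, 1209 and 1199 with siRNA2, and 1867, 1880 and 1890 with NC. It fell by 0.92 with siRNA1 (SE 0.08, adjusted p = 2.68e-06, edgeR) and by 0.59 with siRNA2 (SE 0.08, adjusted p = 6.78e-05, edgeR). GSR, glutathione reductase, fell by 0.25 with siRNA1 (adjusted p = 0.000422, edgeR) and by 0.50 with siRNA2 (adjusted p = 6.93e-07, edgeR). The ABCC export pumps of the list differed in their pattern. ABCC1 fell with siRNA1 by 0.21 (adjusted p = 0.000992, edgeR) and rose with siRNA2 by 0.31 (adjusted p = 2.6e-05, edgeR). ABCC2 fell with siRNA2 by 0.65 (adjusted p = 3.71e-06, edgeR), against 0.06 with siRNA1 (adjusted p = 0.569, edgeR). ABCC3 rose with siRNA1 by 0.56 (adjusted p = 0.000103, edgeR), against 0.10 with siRNA2 (adjusted p = 0.345, edgeR). GPX2, a glutathione peroxidase named here after its values were seen, had 0 counts in all 3 siRNA1 libraries, 10, 6 and 11 counts in the siRNA2 libraries, and 21, 9 and 27 in the NC libraries. Against a floor of 3 counts per library, GPX2 was at least 6.48-fold lower with siRNA1 than with NC, and the median of the list was -0.03 with the gene at that bound as well.

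The proteins that work with TXNRD1 and SRXN1 were also read. Of 15 genes of the thioredoxin and peroxiredoxin system, 14 were kept, and TXNIP was listed at 0 in 8 libraries; whether this comes from the counting was not tested. With siRNA1 2 rose, 8 fell and 4 did not pass the edgeR test, with a median log2 fold change of -0.16, and with siRNA2 3 rose, 3 fell and 8 did not pass, with a median of -0.05. Of all genes 10.8% rose and 10.5% fell with siRNA1, and 13.8% rose and 13.9% fell with siRNA2. Without replicate 1 of NC 6 were past the threshold for siRNA1, 1 upwards and 5 downwards. For siRNA2, 4 to 9 were past it with 1 library left out. TXN, the thioredoxin that TXNRD1 reduces, had 10304, 8587 and 8742 normalized counts with siRNA1, 12513, 11674 and 11859 with siRNA2, and 10181, 10252 and 9874 with NC. It rose with siRNA2 by 0.25 (SE 0.06, adjusted p = 0.00618, edgeR), and its -0.13 with siRNA1 did not pass (adjusted p = 0.141, edgeR). Replicate 1 was the high siRNA1 library, and without it TXN was -0.22 from NC (adjusted p = 0.000956, edgeR). PRDX1, an abundant peroxiredoxin that SRXN1 repairs, fell with siRNA1 by 0.31 (adjusted p = 0.000686, edgeR) and had 0.12 with siRNA2 (adjusted p = 0.109, edgeR), or 0.11 (adjusted p = 0.0109, edgeR) with replicate 1 of siRNA1 left out of the fit. TXN2, the mitochondrial thioredoxin, fell with siRNA1 by 0.53 (adjusted p = 1.46e-05, edgeR), as did GLRX, a glutaredoxin, by 0.95 (adjusted p = 0.0001, edgeR). PRDX4, the peroxiredoxin of the endoplasmic reticulum, rose with both, by 0.33 with siRNA1 (adjusted p = 0.000428, edgeR) and by 0.59 with siRNA2 (adjusted p = 1.94e-06, edgeR).

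The reductases above depend on NADPH, which ME1 and a few other enzymes supply. Of 9 NADPH-producing enzymes other than ME1, 7 were kept. With siRNA1 4 rose and 2 fell, and with siRNA2 2 rose and 2 fell (edgeR, adjusted over all genes), beside 21.3% and 27.7% of all genes called. With 1 library left out, 4 to 5 were past the threshold for siRNA1 and 3 to 4 for siRNA2. MTHFD1 and ME2 are named here after their values were seen. The rise of MTHFD1 with siRNA1 (0.10, adjusted p = 0.0459, edgeR) was lost whichever library was left out. That of ME2 (0.16, adjusted p = 0.0136, edgeR) was lost without replicate 2 or 3 of NC. MTHFD2, a mitochondrial folate enzyme, rose with siRNA1 by 0.30 (SE 0.03, adjusted p = 2.18e-05, edgeR), against -0.05 with siRNA2 (adjusted p = 0.321, edgeR). PGD of the pentose phosphate pathway rose with both, by 0.16 (adjusted p = 0.00601, edgeR) with siRNA1 and by 0.30 (adjusted p = 3.52e-05, edgeR) with siRNA2. IDH1, the cytosolic isocitrate dehydrogenase, fell by 0.63 with siRNA1 (SE 0.04, adjusted p = 2.24e-07, edgeR) and by 0.43 with siRNA2 (SE 0.04, adjusted p = 3.01e-06, edgeR). IDH1 and PGD also belong to the list of other NRF2 targets, as do TXN and PRDX1.

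Across the 9 libraries the genes with the log2 CPM profile most like that of AKR1C1, among 15090 genes with a mean of at least 50 normalized counts, were NABP2 (Pearson r = 0.872), TBC1D3H (r = 0.866), IRF7 (r = 0.866), SLC10A4 (r = 0.865) and CLCC1 (r = 0.864). These r values are a description over 9 points that share 3 treatments, from a gene with a spread within a group as wide as its distance between groups.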

How the data were processed

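The 9 HCT116 libraries were sequenced by a company (Lianchuan Biotechnology), and gene-level whole-number counts without normalization were deposited. The submitters' processing notes name hg19; the aligner, counting program, annotation and strand are not stated in the sources. Groups came from the library labels, and all 9 libraries were used. Genes were kept by filterByExpr (minimum count 10, minimum total count 15), scaled by TMM and tested by quasi-likelihood F tests (edgeR 4.0.16, R 4.3.3) in 1 model of 3 groups with 6 residual degrees of freedom, with Benjamini-Hochberg adjustment over 21130 genes and a threshold of 0.05. The study's methods name limma on raw counts; limma-voom (limma 3.58.1) was an alternative. Each SE is |log2 fold change| over the root of its F statistic. The test was checked on simulated data. An exact two-sided permutation test of 3 against 3 libraries cannot go below 0.1.

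The members and lists were chosen with earlier results of these data known. Named genes are all 10 members, LINC00857, NFE2L2, KEAP1, every other aldo-keto reductase kept, markers, the 5 genes most like AKR1C1 by Pearson r of log2 CPM (prior count 2), and from each list up to 4 genes per comparison with the smallest adjusted p and a mean of at least 50 normalized counts. Alternatives were upper quartile or median-of-ratios scaling, limma-voom, DESeq2 1.42.0, a replicate block, fits of 2 groups alone, no filter or one of 10 counts in each library of a group, and each library left out. These were run on the thioredoxin, NADPH and aldo-keto reductase lists only after seeing the data. Positions, exons and transcripts came from GENCODE v29 (GRCh38), joined by gene ID, and promoters from RefSeq (GRCh38.p14). The values of 1 gene named by this rule are not reported here.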

Additional observations from a re-analysis of the deposited data

Results flagged for a closer look

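Of 86 genes looked at, cell type markers included, 7 had every siRNA1 library on one side of every NC library and every siRNA2 library on the other side, beside 6.09% of all 21130 genes. TXNRD1 was lower with siRNA1 and higher with siRNA2 than with NC, a direct log2 difference of -1.08 for siRNA1 minus siRNA2, given without a test because the gene was chosen with these values known. The rule sets the siRNA1 and siRNA2 libraries apart in advance, so the direct differences of the other genes are also given without a test. MAFK was higher with siRNA1 and lower with siRNA2, with a direct difference of 0.49. PRDX1 was lower with siRNA1 and higher with siRNA2, with a direct difference of -0.43, although its siRNA2 value did not pass the test against NC. ABCC1 was lower with siRNA1 and higher with siRNA2, with a direct difference of -0.52. Among the cell type markers, EPCAM, CDH1 and COL1A1 were higher with siRNA1 and lower with siRNA2. Their direct differences were 0.84 for EPCAM, 1.42 for CDH1 and 1.16 for COL1A1.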

How the results depend on the processing

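Under 17 alternatives, 484 of 510 values of the 10 genes kept their direction and their side of the threshold, 0 were lost, and 19 changed sign, 0 of them values past the threshold. AKR1B1 with siRNA1 against NC passed it under 7 alternatives and not otherwise. With 1 library left out, values that changed sign ran from -0.31 to 0.17 for AKR1C1 (siRNA1 against siRNA2), and, for siRNA1 against NC, from -0.40 to 0.11 for AKR1C2, -0.28 to 0.15 for AKR1C3, -0.21 to 0.44 for AKR1B10, -0.022 to 0.019 for NQO1, -0.053 to 0.0014 for SRXN1 and -0.12 to 0.13 for OSGIN1. For siRNA2 against NC they ran from -0.16 to 0.088 for OSGIN1 and -0.0018 to 0.091 for ME1. Upper quartile scaling gave 0.011 for SRXN1 and 0.021 for OSGIN1 with siRNA1, and limma-voom gave 0.0086 for OSGIN1; the cause was not tested. Regulators called for siRNA1 against NC numbered 4 as reported, 2 to 4 with 1 library left out (2 without siRNA1 replicate 3) and 3 to 5 under the other alternatives, and for siRNA1 against siRNA2 7 as reported, 4 to 6 with 1 library left out (4 without siRNA1 replicate 2) and 6 to 7 otherwise. Among lists added after seeing the data, with 1 library left out the thioredoxin system numbered 6 to 10 for siRNA1 against NC and 4 to 9 for siRNA2 against NC. The other aldo-keto reductases then numbered 0 to 1 for siRNA2 against NC and 0 to 2 for siRNA1 against siRNA2. The thioredoxin system numbered 10 for siRNA2 against NC with only those 2 groups fitted (6 as reported). Replicate numbers did not pair the libraries (same-number correlations of -0.091 to 0.063). The replicate block called 4481 genes for siRNA1 against NC (4491 without it) and gave 0.0043 for OSGIN1. The 3 AKR1C genes and AKR1B10 are limited by counts of at most 222 per library.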
